A study of Drosophila melanogaster with 4 samples.

Results

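The transcriptome of Drosophila wing discs that carried the Hippo pathway coactivator Yorkie together with an inverted-repeat construct against taiman (labelled enGFP+Yki+Tai-IR, here Yki+Tai-IR) was set against that of discs with Yorkie alone (enGFP+Yki, here Yki). These are 2 of the 4 libraries of the series, and 7804 of the 13990 genes in the deposited table entered the comparison because their mean level over the 4 libraries was at least 1 FPKM (fragment counts corrected for transcript length and library size) and they were not small-RNA genes. Wing discs are larval epithelia that give rise to the adult wings and the dorsal thorax. Both groups, and the further Yki+Tai (Yorkie with added Taiman) and GFP groups quoted as levels, carried GFP under the engrailed driver (en), as the label enGFP states; this driver works in posterior cells of a disc. Each library therefore mixes posterior cells, in which the driver works, and anterior cells, in which it does not. The larvae were wandering L3 animals kept at 25 °C, and each genotype is 1 pool of 80 to 100 discs, so no difference has a replicate check and no test or p-value can be given. Estimated from the spacing of low values, the depth was 8.29 M fragments in Yki+Tai-IR, 9.58 M in Yki, 12.5 M in Yki+Tai and 8.06 M in GFP. At these depths 3 fragments on a transcript of 2 kb amount to 0.202 FPKM in Yki+Tai-IR and 0.175 FPKM in Yki. Ratios are given as Yki+Tai-IR over Yki with a 95% exact Clopper-Pearson interval on the estimated fragments, which covers counting error only and not the variation between pools.

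Yorkie is the transcriptional coactivator that the Hippo kinases hold back. Free of that restraint it enters the nucleus, binds the DNA-binding protein Scalloped and turns on genes for growth and survival, among them several that feed back on the Hippo pathway itself. Taiman is a coactivator of the steroid hormone receptor EcR and also binds Yorkie. The comparison shows which transcripts differ between Yorkie discs with and without the construct against tai.

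The yki transcript, which the transgene supplies, stood at 2563 FPKM in Yki+Tai-IR, against 5034 in Yki and 71.5 in GFP, a ratio of 0.509 (0.502 to 0.516). It was thus lower in the discs with the construct against tai. Transcript of tai was at 22.9 FPKM in Yki+Tai-IR, against 25.0 in Yki and 27.1 in GFP, a ratio of 0.916 (0.865 to 0.970). Anterior cells also contribute to this value, and any fragments from the construct cannot be told apart from endogenous tai. Whether, and how far, tai was lowered in posterior cells is therefore not shown by these values. The eye-colour gene w, a marker carried by many fly transgenes, was at 48.5 FPKM in Yki+Tai-IR, 59.9 in Yki and 34.2 in GFP. Among the posterior genes, en was at 23.9 FPKM in Yki+Tai-IR, against 32.6 in Yki and 43.2 in GFP, a ratio of 0.732 (0.654 to 0.819). The posterior partner genes inv, an en paralog, and hh, the Hedgehog ligand, had ratios of 0.963 (0.895 to 1.04) and 0.915 (0.822 to 1.02). The anterior transcription factor gene ci was at 103 FPKM in Yki+Tai-IR, against 81.3 in Yki and 128 in GFP. The part of the lower yki signal and of the compartment genes in the differences below was not tested. Transcripts of 3 wing disc genes were present in both libraries, which cannot show whether a pool also held other tissue. Of these, nub was at 65.4 FPKM in Yki+Tai-IR and 89.7 in Yki, and vg at 42.2 in Yki+Tai-IR and 53.6 in Yki. The Yorkie partner sd was at 110.0 in Yki+Tai-IR and 122 in Yki.

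Across the transcriptome the differences were mostly small and those past the limit were mostly upward. The difference is in log2(FPKM + 1), Yki+Tai-IR minus Yki, and a gene was counted at 1 or more, which is 2-fold on that scale. By this rule 249 genes (3.19%) were higher and 72 (0.923%) lower in Yki+Tai-IR, while 3997 genes (51.2%) lay above 0 and 3801 (48.7%) below it. The median over all genes was 0.007. At 4-fold the counts were 73 higher and 10 lower, and at 8-fold 26 and 5. The 249 higher genes had median levels of 6.94 FPKM in Yki+Tai-IR, 0.972 in Yki and 2.99 in GFP, and 32 of them were listed at 0 in Yki. The 72 lower genes had medians of 1.58 FPKM in Yki+Tai-IR, 7.43 in Yki and 6.06 in GFP. Just inside and outside the limit stood CG32071 (1.00) and comm2 (0.996) on the higher side, and Kif3C (-1.004) and BBS8 (-0.996) on the lower side. Many called genes are scarce: with genes under 50 estimated fragments in both libraries left out, 144 were higher and 41 lower.

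**Figure D1:**
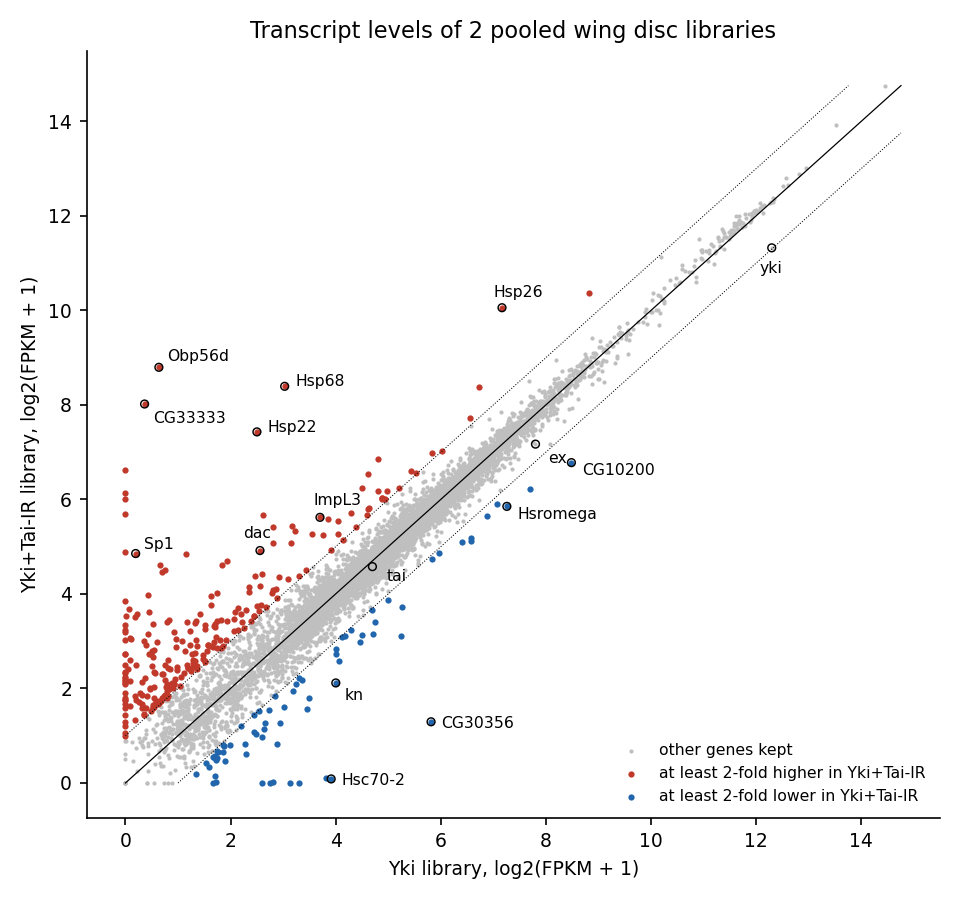
Level of each of the 7804 genes in the Yki library (x axis) and in the Yki+Tai-IR library (y axis), both as log2(FPKM + 1). The solid line marks equal levels and the dotted lines the 2-fold limit; 249 red points lie above it and 72 blue points below it.

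Of 17 Yorkie targets 11 lay below 0, against 48.7% of all genes, and 1 passed the limit downward, against 0.923%. That gene was CG14059, which encodes Ilp8, the relaxin-like peptide by which abnormally growing discs delay pupariation. It stood at 9.66 FPKM in Yki+Tai-IR, against 26.02 in Yki and 0.188 in GFP, a ratio of 0.371 (0.269 to 0.512). It remained far above the GFP library. The growth regulator Myc, listed as dm, was at 36.2 FPKM in Yki+Tai-IR, against 58.9 in Yki and 61.3 in GFP, a ratio of 0.615 (0.586 to 0.644). The Hippo pathway scaffold gene ex was at 143 FPKM in Yki+Tai-IR, against 222 in Yki and 104 in GFP, a ratio of 0.644 (0.626 to 0.662). So dm lay below its level in GFP discs, while ex lay between Yki and GFP. The glypican gene dally, whose product carries morphogens at the cell surface, was at 101 FPKM in Yki+Tai-IR, against 129 in Yki and 95.8 in GFP, and its relative dlp at 48.9 in Yki+Tai-IR, 56.5 in Yki and 50.3 in GFP. Also below their Yki level were the Hippo component kibra (28.5 FPKM in Yki+Tai-IR, 33.8 in Yki, 14.1 in GFP), the apoptosis inhibitor th (251 in Yki+Tai-IR, 277 in Yki and 233 in GFP), the kinase gene fj (75.4 in Yki+Tai-IR, 84.7 in Yki and 93.4 in GFP), the EGFR ligand vn (13.2 in Yki+Tai-IR, 14.7 in Yki and 11.9 in GFP) and the polarity gene crb (57.9 in Yki+Tai-IR, 63.5 in Yki and 70.6 in GFP).

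The remaining members lay near or above their Yki level. The transcription factor gene chinmo was at 8.18 FPKM in Yki+Tai-IR, against 8.21 in Yki and 1.25 in GFP, a ratio of 0.997 (0.907 to 1.09). The cell cycle gene CycE had a ratio of 1.05 (0.961 to 1.14), at 31.9 FPKM in Yki+Tai-IR, 30.4 in Yki and 27.2 in GFP. The S-phase transcription factor gene E2f (74.6 FPKM in Yki+Tai-IR, 72.5 in Yki, 66.4 in GFP) and the Wnt ligand wg (42.7 in Yki+Tai-IR, 40.3 in Yki and 38.2 in GFP) were also close between the libraries. The Notch ligand Ser was at 57.4 FPKM in Yki+Tai-IR, against 48.0 in Yki and 80.4 in GFP, and Mer (26.3 in Yki+Tai-IR, 23.6 in Yki and 30.2 in GFP) and Rae1 (69.7 in Yki+Tai-IR, 59.4 in Yki and 77.1 in GFP) were above Yki too. The other 6 of the 17 targets lay above 0, and the median was -0.14. The 3 lowest were CG14059, dm and ex.

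The medians of the wider Hippo list, the cofactors and the wing patterning lists were small as well, though single members differed more. Of 35 Hippo pathway genes 0 were past the limit in either direction, and the median was -0.10. In the Hippo list 22 were below 0, against 48.7% of all genes. Its lowest members after yki and ex were the cell adhesion gene ed, at 115 FPKM in Yki+Tai-IR, 150.2 in Yki and 158 in GFP, and the Yorkie cofactor gene mask, at 41.5 in Yki+Tai-IR, 53.4 in Yki and 71.7 in GFP. Among 25 cofactors of EcR and Yki, 18 were below 0 and 0 past the limit, with a median of -0.14. The corepressor gene Smr was at 11.5 FPKM in Yki+Tai-IR, 15.9 in Yki and 22.9 in GFP, a ratio of 0.725 (0.679 to 0.775). The acetyltransferase gene nej (CBP) was at 14.9 FPKM in Yki+Tai-IR, 20.3 in Yki and 28.9 in GFP, and CG14023 (Ncoa6) at 11.5 in Yki+Tai-IR, 15.6 in Yki and 18.5 in GFP. These 3 were already lower in Yki than in GFP.

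In the wing pouch list, genes that set up the blade of the wing, 15 of 21 lay below 0, against 48.7% of all genes. Of the 21 genes 1 was past the limit downward, against 0.923% of all genes, and the median was -0.21. The gene past it was kn, a transcription factor of the central wing region, at 3.34 FPKM in Yki+Tai-IR, 15.03 in Yki and 7.49 in GFP, a ratio of 0.222 (0.178 to 0.275). The pouch and hinge transcription factor genes rn and zfh2 followed, rn at 39.0 FPKM in Yki+Tai-IR, 62.9 in Yki and 34.8 in GFP, and zfh2 at 46.6 in Yki+Tai-IR, 69.9 in Yki and 58.1 in GFP. Dll, which acts in both leg and wing, stood apart at 59.0 FPKM in Yki+Tai-IR, 35.0 in Yki and 68.2 in GFP. The 25 Dpp pathway genes had a median of -0.12 with 18 below 0 and 0 past the limit, and the secreted modulator gene magu was at 84.2 FPKM in Yki+Tai-IR, 112 in Yki and 81.8 in GFP. The wing hinge and proximal list had 10 of 14 genes below 0, with a median of -0.18. Past the limit upward was 1, against 3.19% of all genes. That gene was Lim1, at 7.30 FPKM in Yki+Tai-IR, 0.0726 in Yki and 8.35 in GFP, the Yki value resting on 2 estimated fragments. The notum list, for the body wall part of the disc, had a median of 0.098 over 17 genes with 0 past the limit. In whole-disc RNA, fewer cells of a region and less RNA per cell cannot be told apart.

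Single wound, germline and piRNA genes were well below their Yki level. The counts of these lists stand against 48.7% of all genes below 0, 3.19% past the limit upward and 0.923% downward. In the JNK and wound list 18 of 28 genes were below 0, with upd2 past the limit upward and CG14059 downward, and a median of -0.055. The cytokine gene upd2 was at 2.12 FPKM in Yki+Tai-IR, 0.462 in Yki and 0.411 in GFP. The serine protease homolog gene scaf was at 16.2 FPKM in Yki+Tai-IR, 28.6 in Yki and 32.6 in GFP, and the matrix metalloprotease Mmp1 at 26.7 in Yki+Tai-IR, 38.2 in Yki and 33.9 in GFP. Both thus lay below GFP as well as below Yki. Of 25 germline stem cell genes, 14 were abundant enough to be kept. Among these 12 were below 0, with a median of -0.34 that was -0.13 over all 25 genes without the filter on low values, and 1, CG10630 (blanks), was past the limit, at 0.113 FPKM in Yki+Tai-IR, 2.27 in Yki and 0.701 in GFP. CG10630 rested on 1 estimated fragment in Yki+Tai-IR and 23 in Yki. The translational repressor gene mei-P26 was at 5.59 FPKM in Yki+Tai-IR, 11.8 in Yki and 9.89 in GFP, a ratio of 0.473 (0.440 to 0.509). The PIWI-family gene piwi was at 1.42 FPKM in Yki+Tai-IR, 3.16 in Yki and 0.690 in GFP, a ratio of 0.449 (0.294 to 0.679). Of 27 piRNA pathway genes 19 lay below 0 and 8 above, with a median of -0.13, and krimp and del were past the limit downward and the helicase gene spn-E upward. The Tudor-domain gene krimp was at 12.2 FPKM in Yki+Tai-IR, 37.2 in Yki and 20.5 in GFP, del at 13.6 in Yki+Tai-IR, 30.98 in Yki and 19.9 in GFP, and spn-E at 5.53 in Yki+Tai-IR, 1.80 in Yki and 3.43 in GFP. Yki+Tai-IR thus lay below GFP for krimp and del and above it for spn-E. The Tudor-domain gene CG31755 (SoYb) was at 4.83 FPKM in Yki+Tai-IR, 10.5 in Yki and 5.42 in GFP, a ratio of 0.459 (0.385 to 0.544).

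Inducible heat shock genes gave the largest upward difference of any list. Of 16 kept genes, out of 18 in the table, 10 were past the limit upward and 1 downward, against 3.19% and 0.923% of all genes. The median was 1.85 against 0.007 over all genes. Hsp68, an inducible Hsp70-family chaperone, was at 335 FPKM in Yki+Tai-IR, 7.17 in Yki and 22.01 in GFP, a ratio of 46.8 (39.5 to 55.7). The small heat shock genes Hsp22 (171 FPKM in Yki+Tai-IR, 4.66 in Yki, 12.6 in GFP) and Hsp67Bc (27.8 in Yki+Tai-IR, 1.23 in Yki and 3.08 in GFP) differed similarly. Yki+Tai-IR thus lay above GFP for these genes, and Yki below it. The Yki+Tai library was also above both Yki and GFP, with Hsp68 at 178 FPKM, Hsp22 at 74.0 and Hsp67Bc at 7.53. Their cochaperones were higher too: the BAG-domain gene stv was at 115 FPKM in Yki+Tai-IR, 27.0 in Yki and 41.4 in GFP, and DnaJ-1 (Hsp40) at 334 in Yki+Tai-IR, 105 in Yki and 124 in GFP. The Hsp90 gene Hsp83 was just under the limit, at 2244 FPKM in Yki+Tai-IR, 1164 in Yki and 1030 in GFP. Hsp23 and Hsp27, small heat shock genes also used in normal development, were below GFP in both libraries, with Hsp27 at 1988 FPKM in Yki+Tai-IR, 1541 in Yki and 2823 in GFP. The member past the limit downward was the heat shock noncoding RNA Hsromega, at 56.8 FPKM in Yki+Tai-IR, 152 in Yki and 48.0 in GFP. Transcript of the heat shock factor Hsf was at 43.3 FPKM in Yki+Tai-IR, 41.9 in Yki and 49.5 in GFP. The Hsp70 copies, near-identical in sequence, cannot be separated with certainty. Without the Hsp70 genes the median was 1.34. The constitutive chaperones were different, with 0 of 22 past the limit upward, 1 downward (Hsc70-2) and a median of 0.10.

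**Figure D2:**
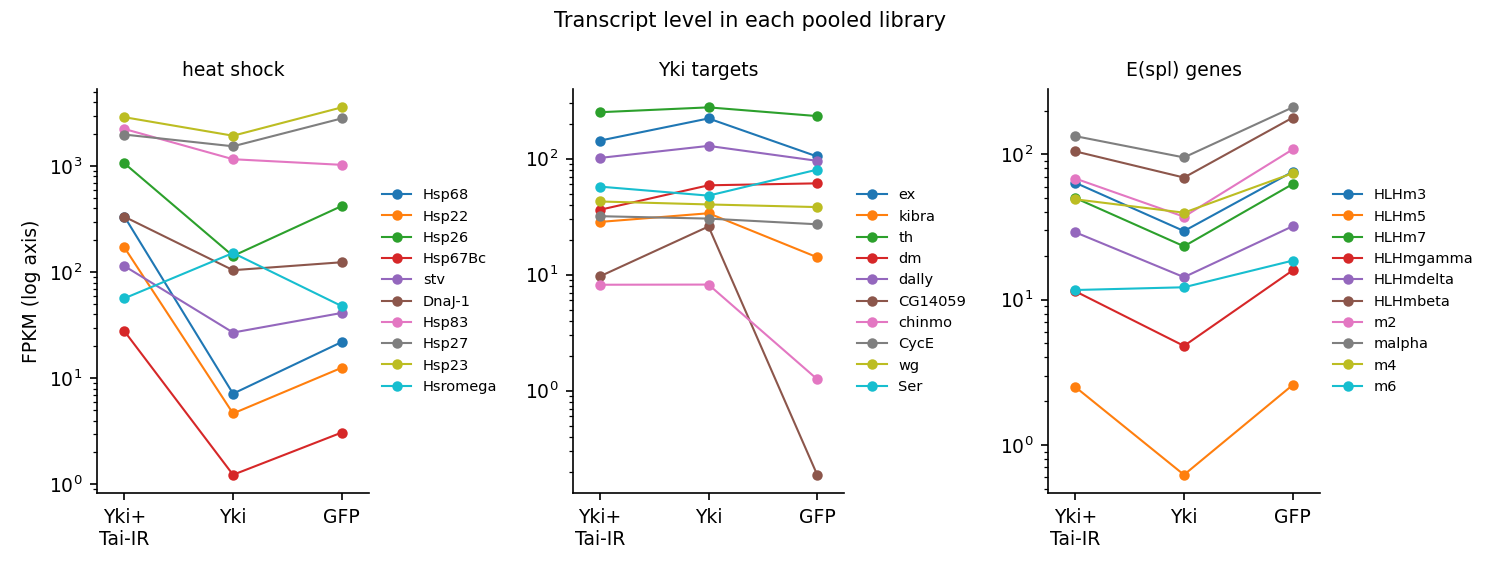
FPKM (log axis) of heat shock, Yki target and E(spl) genes in the Yki+Tai-IR, Yki and GFP libraries, 1 pooled library each; lines join the values of 1 gene and are not a time course. Hsp68 stands at 335 FPKM in Yki+Tai-IR, 7.17 in Yki and 22.01 in GFP, ex at 143 in Yki+Tai-IR, 222 in Yki and 104 in GFP, and HLHm3 at 63.7 in Yki+Tai-IR, 29.6 in Yki and 75.9 in GFP.

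Some detoxification genes were past the limit, and most were not. Among 23 glutathione S-transferases, enzymes that conjugate glutathione to toxic compounds, 6 were past the limit upward and 0 downward, against 3.19% and 0.923% of all genes, 18 lay above 0, and the median was 0.21. Of these 6, 4 (GstE5, GstE6, GstE7 and GstE8) are neighbours in the GstE cluster on arm 2R (18404605 to 18408955, dm6). GstE6 was at 32.6 FPKM in Yki+Tai-IR, 6.02 in Yki and 2.99 in GFP, a ratio of 5.41 (3.67 to 8.30). Members of this cluster are similar in sequence, so their separate values are uncertain. Of 23 cytochrome P450 genes 14 lay above 0 and 9 below, and 4 were past the limit upward and 0 downward, namely Cyp6a20, Cyp6d2, Cyp4e2 and Cyp9c1, the last at 41.5 FPKM in Yki+Tai-IR, 19.8 in Yki and 12.3 in GFP. The redox and metal list had 17 of 28 genes above 0 and 1 past the limit, a share near the 3.19% of all genes, the metallothionein gene MtnA, at 10.1 FPKM in Yki+Tai-IR, 3.21 in Yki and 5.70 in GFP.

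Glycolysis genes shared a direction: 17 of 18 lay above 0, against 51.2% of all genes, with a median of 0.40. Past the limit upward was 1, against 3.19% of all genes. That gene was ImpL3 (lactate dehydrogenase), at 48.2 FPKM in Yki+Tai-IR, 12.0 in Yki and 9.63 in GFP, a ratio of 4.01 (3.41 to 4.78). In Yki+Tai it was at 68.1 FPKM. The glycolytic enzyme gene Gapdh1 was at 231 FPKM in Yki+Tai-IR, 140.1 in Yki and 211 in GFP, the pyruvate dehydrogenase kinase gene Pdk at 21.3 in Yki+Tai-IR, 11.6 in Yki and 16.6 in GFP, and the trehalose transporter gene Tret1-1 at 6.06 in Yki+Tai-IR, 2.62 in Yki and 1.01 in GFP. These 4 genes, named for the largest differences from Yki, lay above both Yki and GFP in Yki+Tai-IR, with Gapdh1 at the smallest ratio to GFP. The 18 genes as a list did not lie clearly above GFP. Their median level was 71.9 FPKM in Yki+Tai-IR, 60.5 in Yki and 78.6 in GFP, and their sums were 2608, 1990 and 2561.

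Enhancer of split genes, the direct targets of Notch signalling, lay mostly above 0. Of 14 E(spl) and Bearded genes 13 lay above 0, against 51.2% of all genes, with a median of 0.58. Past the limit upward were 4, against 3.19% of all genes. The repressor gene HLHm3 was at 63.7 FPKM in Yki+Tai-IR, 29.6 in Yki and 75.9 in GFP, a ratio of 2.15 (1.87 to 2.47). HLHm7 was at 50.1 FPKM in Yki+Tai-IR, 23.3 in Yki and 62.4 in GFP, HLHmgamma at 11.4 in Yki+Tai-IR, 4.80 in Yki and 15.9 in GFP, and HLHm5 at 2.50 in Yki+Tai-IR, 0.622 in Yki and 2.58 in GFP. All 4 were between the Yki and GFP values, and HLHm5 rested on only 14 estimated fragments in Yki+Tai-IR and 4 in Yki. The list of Notch receptor, ligands and modulators had 0 of 29 past the limit and a median of -0.008. Of 12 proneural and sensory genes, ato alone was past the limit, at 2.63 FPKM in Yki+Tai-IR, 0.246 in Yki and 4.08 in GFP. It rested on 22 estimated fragments in Yki+Tai-IR and 2 in Yki. The proneural gene ac was at 25.6 FPKM in Yki+Tai-IR, 15.1 in Yki and 33.3 in GFP.

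**Figure D3:**
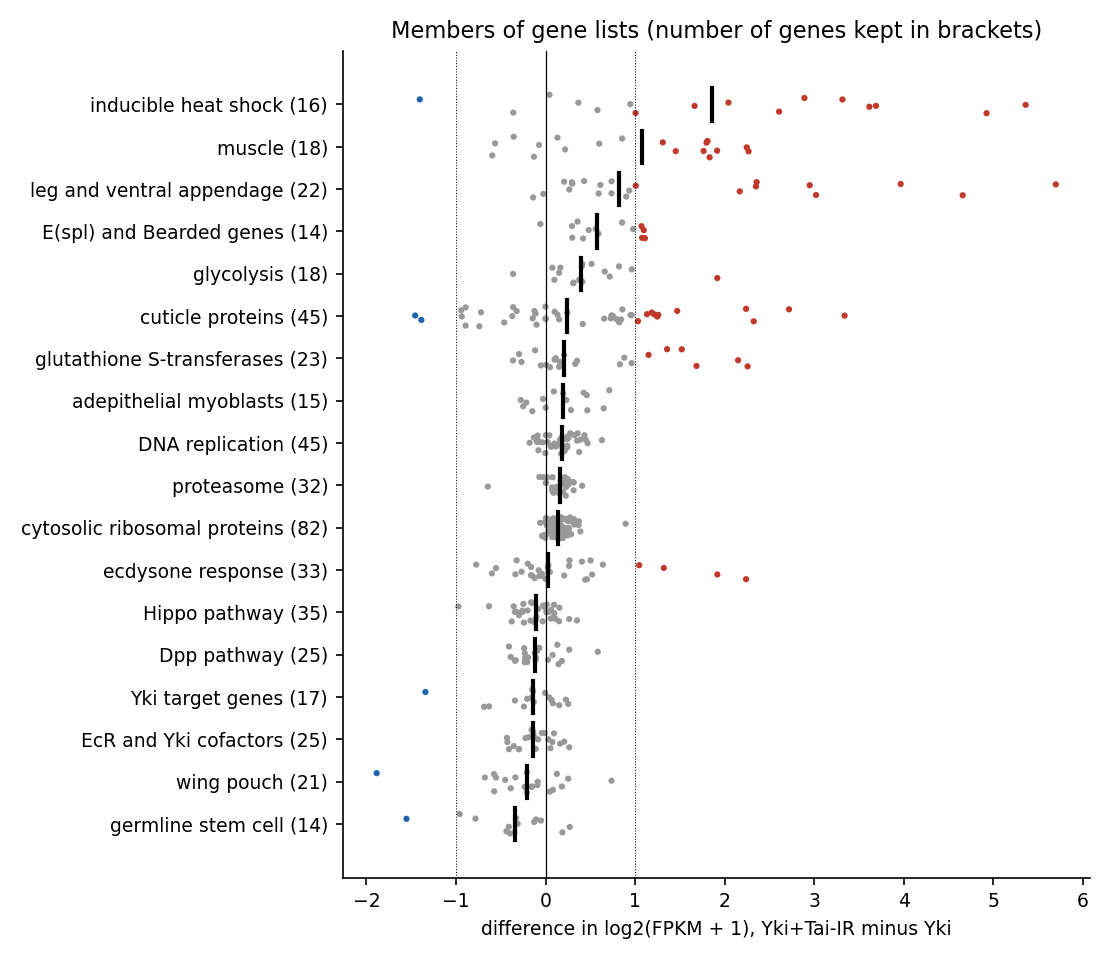
Difference in log2(FPKM + 1), Yki+Tai-IR minus Yki, of each kept member of 18 gene lists; black bars are list medians, dotted lines the 2-fold limit. Heat shock genes have the highest median shown (1.85) and germline stem cell genes the lowest (-0.34).

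Ecdysone response genes were split in direction. Of 33 genes 17 lay above 0 and 15 below, with a median of 0.025. Past the limit, against 3.19% and 0.923% of all genes, were 4 upward and 0 downward. They were ImpL3, the cuticle gene Edg91 (9.65 FPKM in Yki+Tai-IR, 1.25 in Yki, 9.76 in GFP), ImpL1 (5.08 in Yki+Tai-IR, 1.43 in Yki and 4.39 in GFP) and ImpL2, the secreted antagonist of insulin signalling. ImpL2 was at 75.2 FPKM in Yki+Tai-IR, 35.9 in Yki and 42.8 in GFP, a ratio of 2.10 (1.91 to 2.297). Receptor transcript EcR was at 44.0 FPKM in Yki+Tai-IR, 42.9 in Yki and 35.2 in GFP. The early response gene br was at 147 FPKM in Yki+Tai-IR, 216 in Yki and 315 in GFP. The cuticle protein genes, many of them expressed in stage-specific sets, differed in both directions: 11 of 45 kept were past the limit upward and 2 downward (3.19% and 0.923% of all genes), with a median of 0.24. The lower ones were Cpr51A, at 33.9 FPKM in Yki+Tai-IR, 94.7 in Yki and 34.7 in GFP, and TwdlE, at 7.70 in Yki+Tai-IR, 21.8 in Yki and 9.58 in GFP. In Yki+Tai, Cpr51A was at 413 FPKM and TwdlE at 136, so for both genes Yki+Tai-IR was close to GFP and the other libraries were higher.

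Lists of growth machinery differed by small amounts, and those named first lay above 0 more often than the 51.2% of all genes. Of 45 DNA replication genes 34 lay above 0 with a median of 0.18, of 82 ribosomal protein genes 77 with a median of 0.14, of 32 proteasome genes 29 with a median of 0.16, and of 73 oxidative phosphorylation genes 55 with a median of 0.11. In these 4 lists 0 genes were past the limit in either direction. The helicase-complex subunit gene Sld5 was at 41.4 FPKM in Yki+Tai-IR, 26.4 in Yki and 30.1 in GFP, and the clamp loader gene RfC3 at 50.7 in Yki+Tai-IR, 36.9 in Yki and 34.9 in GFP. These medians depend on scaling: set to the same FPKM sum, differences of abundant genes drop by about 0.08 and those of scarce genes by less. The medians of the ribosomal protein and proteasome lists then become 0.058 and 0.079. Other lists of this kind were split: mitochondrial ribosomal proteins had 39 genes above 0 and 34 below with a median of 0.038, translation initiation 25 above and 18 below with a median of 0.044, cell cycle 24 above and 14 below with a median of 0.043, and ribosome biogenesis 20 above and 14 below with a median of 0.044.

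Markers of other tissues also differed between the libraries. Of 22 kept genes of the leg and ventral appendage list, 9 were past the limit upward and 0 downward, and the median was 0.82; this and the counts of the other tissues below stand against 3.19% of all genes upward and 0.923% downward. The forkhead gene fd96Cb was at 51.0 FPKM in Yki+Tai-IR, listed at 0 in Yki, and at 46.2 in GFP. The leg transcription factor genes Sp1 (27.9 FPKM in Yki+Tai-IR, 0.144 in Yki, 43.9 in GFP), AP-2 (23.6 in Yki+Tai-IR, 0.569 in Yki and 37.6 in GFP) and fd96Ca (7.12 in Yki+Tai-IR, listed at 0 in Yki, 11.2 in GFP) followed, with dac at 29.2 in Yki+Tai-IR, 4.90 in Yki and 40.2 in GFP. Of these 5 genes, fd96Cb, Sp1, AP-2 and fd96Ca were under 1 FPKM in Yki, while dac was not. The list summed to 605 FPKM in Yki+Tai-IR, 364 in Yki, 396 in Yki+Tai and 707 in GFP. Of 18 kept muscle genes 9 were past the limit upward, with a median of 1.08, and the muscle actin gene Act57B was at 19.9 FPKM in Yki+Tai-IR, 4.53 in Yki and 15.2 in GFP. Restricted to members with a mean of at least 5 FPKM, this median was 0.030. Myoblasts, which lie under the wing disc epithelium, had 0 of 15 markers past the limit and a median of 0.20. The blood cell list had a median of 0.002 over 15 genes with 0 past the limit, and the fat body list 1 of 10 (Obp99a). Eye and antenna genes had 3 of 6 past the limit upward (dac, ato and Optix), of which dac and ato are also named above. In this list 2 genes lay below 0, among them eya, at 4.48 FPKM in Yki+Tai-IR, 8.24 in Yki and 8.17 in GFP. Glia had 2 of 9 past the limit upward (Gs2 and wrapper). Trachea had 0 of 13, and all 31 gut proteases and 8 Turandot stress genes were too low to be kept. The part of other tissues in the differences of Dll, the E(spl), proneural, heat shock, cuticle and pouch genes was not tested. With the genes of the other-tissue and heat shock lists left out, 216 genes remained past the limit upward and 71 downward.

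**Figure D4:**
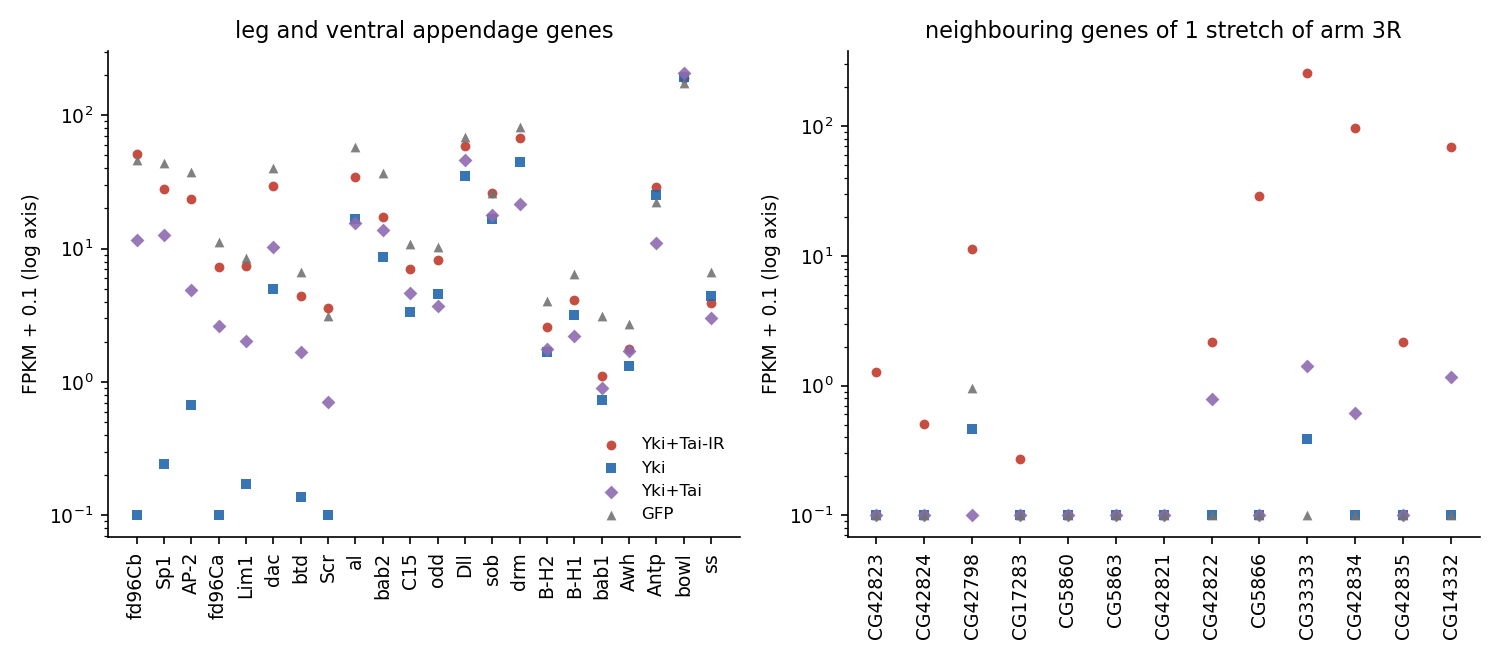
Left, level of 22 leg and ventral appendage genes in the 4 libraries, ordered by the difference of Yki+Tai-IR from Yki; right, level of 13 neighbouring genes of arm 3R, in their order on the chromosome. Both y axes are FPKM + 0.1 on a log scale, so points at 0.1 are listed at 0, and red circles (Yki+Tai-IR) reach 258 FPKM in the stretch where the other libraries stay under 2 FPKM.

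The largest single differences were concentrated in a few genes. Obp56d, an odorant-binding protein gene, had the highest, at 443 FPKM in Yki+Tai-IR, 0.555 in Yki, 9.96 in Yki+Tai and 1.64 in GFP. The next 3 were neighbours on arm 3R with no role given here, CG33333, CG42834 and CG14332. CG33333 was at 258 FPKM in Yki+Tai-IR, 0.287 in Yki, 1.32 in Yki+Tai and listed at 0 in GFP. The annotated stretch from CG42823 to CG14332 (3R, 17404487 to 17422202, dm6) holds 13 genes, which summed to 471 FPKM in Yki+Tai-IR, 0.651 in Yki, 3.58 in Yki+Tai and 0.862 in GFP. Of these genes 11 were listed at 0 in Yki and 3 in Yki+Tai-IR, so the stretch was read almost solely in the discs with the construct. Among the genes around the stretch, CREG was at 37.7 FPKM in Yki+Tai-IR, 10.7 in Yki and 10.1 in GFP, the gene Sur-8, closer to the stretch, at 28.3 in Yki+Tai-IR, 34.5 in Yki and 25.2 in GFP, CG5873 on the other side at 7.52 in Yki+Tai-IR, 14.6 in Yki and 11.2 in GFP, and sds22 at 96.3 in Yki+Tai-IR, 96.9 in Yki and 84.8 in GFP. CG7465 (63.0 FPKM in Yki+Tai-IR, listed at 0 in Yki and GFP), the ion channel gene Ih (13.5 in Yki+Tai-IR, listed at 0 in Yki, 0.230 in GFP), the synaptotagmin gene Syt4 (21.1 in Yki+Tai-IR, 0.610 in Yki and 0.553 in GFP) and the serine protease gene ea (21.8 in Yki+Tai-IR, 0.683 in Yki and 3.85 in GFP) were also among the 15 highest. In all, 43 higher genes stood in 11 runs in which at least 3 of 5 neighbouring kept genes were past the limit, and these include the 3R stretch and the GstE, small heat shock and E(spl) clusters. On the lower side 6 genes stood in 2 such runs, 1 with kn and CG10200 and 1 with Hsc70-2 and CG31157.

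Several of the 15 lowest genes were low in Yki+Tai-IR and Yki+Tai alike. CG30356 was at 1.45 FPKM in Yki+Tai-IR, 55.3 in Yki, 0.242 in Yki+Tai and 58.1 in GFP. The chaperone gene Hsc70-2 was at 0.0608 FPKM in Yki+Tai-IR, 14.1 in Yki, 0.0405 in Yki+Tai and 14.2 in GFP. Its neighbour on arm 3R, CG31157, was listed at 0 in Yki+Tai-IR and Yki+Tai, and at 8.81 in Yki and 7.56 in GFP. CG42637 (0.0161 FPKM in Yki+Tai-IR, 5.97 in Yki, 0.0188 in Yki+Tai, 8.02 in GFP) and CG12519 (listed at 0 in Yki+Tai-IR, 5.72 in Yki, listed at 0 in Yki+Tai, 5.93 in GFP) showed the same pattern, which separates the libraries with a tai construct from those without. By contrast CG10200, a neighbour of kn on arm 2R, ran the other way with added Taiman, at 109 FPKM in Yki+Tai-IR, 357 in Yki, 775 in Yki+Tai and 87.2 in GFP, a ratio of 0.304 (0.276 to 0.334). Likewise CG16704 was listed at 0 in Yki+Tai-IR, and at 5.07 in Yki, 84.0 in Yki+Tai and 2.00 in GFP. For CG42303 (0.0809 FPKM in Yki+Tai-IR, 13.0 in Yki, 11.3 in GFP) the value depends on how fragments were shared. It has 1 annotated span with CG42304 (3L, 2652088 to 2655455), which was at 10.5 FPKM in Yki+Tai-IR and near 0 elsewhere, and the pair summed to 10.6 FPKM in Yki+Tai-IR, 13.0 in Yki and 11.3 in GFP.

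Genes of chromosome 4, the small and largely heterochromatic chromosome, lay lower than those of every other arm. Of its 61 kept genes 49 were below 0 and 12 above, against 48.7% below 0 over all genes, with a median of -0.26 and quartiles of -0.45 and -0.088. The medians of the other arms ran between -0.010 and 0.025. Past the limit were 3 genes downward (CG33978, unc-13 and Kif3C) and 1 upward (CG11093). CG33978 was at 35.4 FPKM in Yki+Tai-IR, 94.3 in Yki, 82.0 in Yki+Tai and 46.2 in GFP, and the synaptic gene unc-13 at 33.4 in Yki+Tai-IR, 84.0 in Yki, 85.4 in Yki+Tai and 41.7 in GFP. For both, Yki+Tai-IR was near GFP. The anterior gene ci, also on chromosome 4, was above 0. The chromosome took 1.30% of the FPKM in Yki+Tai-IR, 1.48% in Yki, 1.05% in Yki+Tai and 1.13% in GFP. This summary by arm was chosen after the values were seen. The X chromosome had a median of 0.004 over 1300 genes, while its dosage compensation RNAs roX1 (202 FPKM in Yki+Tai-IR, 324 in Yki, 136 in GFP) and roX2 (144 in Yki+Tai-IR, 270.3 in Yki and 103 in GFP) were lower in Yki+Tai-IR. The share of male and female larvae per pool is not given in the sources used here.

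**Figure D5:**
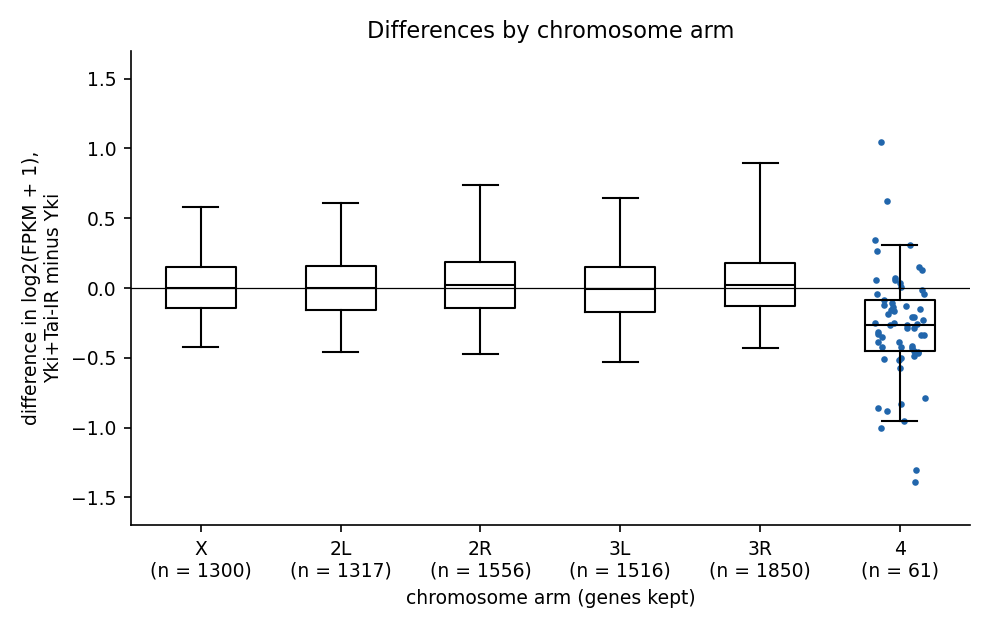
Difference in log2(FPKM + 1), Yki+Tai-IR minus Yki, by chromosome arm; boxes span the quartiles with the median, whiskers reach percentiles 5 and 95, and points show the 61 genes of chromosome 4 within the axis range. The chromosome 4 median is -0.26 and those of the other arms lie between -0.010 and 0.025.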

How the data were processed

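RNA of pooled wing discs was depleted of ribosomal RNA and made into TruSeq RNA version 2 libraries from 4 µg, a kit that does not mark strand, per the labels' protocols. The deposited values are FPKM per gene made by the authors with TopHat2 2.0.12 and Cuffdiff 2.2.1 on dm6, after CASAVA 1.4, per the submitters' processing notes. Annotation and options: not given in the sources used here. An FPKM is scaled by length and library size, so overlapping, antisense and near-identical genes depend on how Cuffdiff shared fragments, and an exact 0 may be a failed estimate. A gene at 0 is called listed at 0, and no fold is given for it.

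From these, the difference in log2(FPKM + 1) was computed for 7804 genes whose mean was at least 1 FPKM; 318 small-RNA genes were left out. With 1 library per genotype no test was made. Depth was read from low FPKM values of single-transcript genes of at least 600 nt, after subtracting 210 nt from the length. Both the depth and the 210 nt were those that gave the largest share of values near whole fragments. At these settings 77.2% of values in Yki+Tai-IR (976 genes) and 76.1% in Yki (979 genes) lay within 0.08 of whole fragments. This share is therefore no separate check of the depth. The depths are estimates, and counts were not used in a count test. Symbols were matched to the BDGP6 annotation (13492 matched, 2963 through an older symbol, 498 not); unmatched genes have no interval. Promoter and protein sequences were not used here.

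The members, lists and comparison were chosen with earlier results of these data known. Named genes are the 15 highest and 15 lowest, the targeted and Yki target genes, and up to 4 members of each other list with the largest differences. Chosen after their values were seen were nub, vg, sd, stv, DnaJ-1, Hsp83, Hsp27, Hsf, Hsromega, EcR, br, CREG, Sur-8, CG5873, sds22, CG42304, CG33978, unc-13, CG11093, Cpr51A, GstE5, GstE8 and the local runs of genes. The counting step was tested on simulated libraries. Python 3.11.15, numpy 2.4.6, pandas 2.3.3, scipy 1.17.1 and matplotlib 3.10.9 were used. The alternatives were other pseudocounts, filters and scalings.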

Additional observations from a re-analysis of the deposited data

How the results depend on the processing

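The count of higher genes, 249, was 89 with a pseudocount of 5, 99 among genes averaging 5 FPKM or more and 144 with genes under 50 estimated fragments left out; under the other 8 alternatives it ran between 216 and 352. The count of lower genes, 72, was 150 with a pseudocount of 0.1, 27 with a pseudocount of 5, 38 among genes averaging 5 FPKM or more, 115 with small-RNA genes kept and 41 with genes under 50 fragments left out. Set to the same FPKM sum, the medians of the ribosomal protein and proteasome lists were 0.058 and 0.079. Of the 78 named genes past the limit, 47 stayed past it with a pseudocount of 5, and 0 changed sign under that or the other pseudocount or either scaling. The medians ran from 1.34 to 1.88 for heat shock genes, -0.22 to -0.12 for Yki targets, -0.41 to -0.13 for germline stem cell genes, -0.29 to -0.19 for the wing pouch, 0.45 to 0.60 for E(spl) genes, 0.62 to 0.93 for leg genes, -0.34 to -0.20 for chromosome 4 and 0.030 to 1.44 for muscle. The 50-fragment filter, the heat shock median without Hsp70 genes and the chromosome 4 median were chosen after seeing the data. No paired analysis was possible because each genotype has 1 library. Planned promoter motif counts were not run. Genes under about 3 fragments are not resolved at this depth.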
